A study of Mus musculus with 8 samples.

Results

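Matrix proteases and their inhibitors were described in 8 mouse tumors through 46 of the 49671 genes in the deposited count table. The members were all genes whose mm10 symbol begins with Mmp or Adamts followed by a digit, or is Timp1, Timp2, Timp3 or Timp4. They comprised 23 matrix metalloproteinases (MMPs), 19 ADAMTS proteases and 4 tissue inhibitors (TIMPs). The rule used gene names only and no measured value, but it was set with earlier results of these data known.

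All 8 tumors came from mice of the genotype HprtCre; Ewsr1-loxP; Atf1-loxP. Cre is expressed from the Hprt locus, which is not restricted to a cell type, and recombination joins Ewsr1, encoding an RNA-binding protein, to Atf1, encoding a CREB-family transcription factor. The human counterpart of this fusion is found in clear cell sarcoma. Tumors were frozen at morbidity without drug treatment, and total RNA depleted of ribosomal RNA was sequenced. Their titles carry the numbers 1 to 6, with the letters L and R after 2 and a and b after 4 (2L, 2R, 4a and 4b), and what number and letter mean is not stated. There was 1 group and no normal tissue, so the tumors could be compared only with each other, and nothing states that they came from separate animals. Any p-value therefore concerns these libraries only. Gene tests set differences among title numbers against the spread within the pairs 2L with 2R and 4a with 4b. Permutation tests relate gene pairs over the 6 numbers.

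MMPs are zinc proteases that are secreted or held at the cell surface as inactive precursors and cleave collagens, elastin and other matrix proteins. ADAMTS proteases (a disintegrin and metalloproteinase with thrombospondin motifs) are secreted and cut proteoglycans, procollagens and microfibril proteins. TIMPs bind the active site of MMPs and inhibit them, and TIMP2 also serves as the adaptor through which MMP14 activates the precursor of MMP2. In connective tissue tumors such genes are expressed both by tumor cells and by fibroblasts, macrophages and vessels. In bulk RNA, fewer cells of a type and less RNA per cell cannot be told apart.

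Library totals ran from 4817902 counts in tumor 3 to 19682149 in tumor 2L. Levels are given as CPM, counts per 1000000 counts of a library after scaling with TMM factors, with the SD over the 8 tumors. The factor of library 3 was 0.394, against 0.830 to 1.36 in the other 7, so the CPM of library 3 depend most on the scaling. Without the factor, values of tumor 3 were lower by 1.34 on the log2 scale and those of the other tumors moved by -0.27 to 0.45. Ewsr1 and Atf1 counts do not separate the fusion transcript from the intact alleles. As counting by strand is not stated, reads of a member and of a gene on the opposite strand cannot be told apart: 13 members share exon bases with another gene, among them Timp3 (1733 bases shared with Syn3), Adamts9, Mmp19, Mmp24 and Mmp28.

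Promoter sequences are shown first because 7 of the 10 genes of the Mmp cluster on chromosome 9 (mm10, 7272514 to 7699585) hold the same AP-1 motif near their start. AP-1, the dimer of FOS and JUN proteins, is a known activator of several MMP promoters. The motif searched was TGAGTCA or its reverse complement TGACTCA, and it contains none of the CRE motifs searched. RefSeq promoters (GRCm38.p6, the assembly of mm10, 250 bases before to 50 after the start) were given for 32 of the 46 members. An AP-1 match lay in 7 of these 32 genes, all in the cluster, and in 5.95% of all 27025 genes with a promoter. Each sequence is written 5′ to 3′ on the gene's strand, with the AP-1 match in capitals and its distance from the start counted at its first base.
Mmp13, collagenase 3, 35 bases before the start, plus strand, chr9:7272459-7272505: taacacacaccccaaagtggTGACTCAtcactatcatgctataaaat
Mmp12, macrophage elastase, 44 bases before the start, plus strand, chr9:7347310-7347356: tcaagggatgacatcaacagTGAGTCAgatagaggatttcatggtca
Mmp3, stromelysin 1, 46 bases before the start, plus strand, chr9:7445756-7445802: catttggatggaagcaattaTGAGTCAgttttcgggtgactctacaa
Mmp10, stromelysin 2, 63 bases before the start, plus strand, chr9:7502259-7502305: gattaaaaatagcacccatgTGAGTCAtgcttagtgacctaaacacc
Mmp7, matrilysin, 63 bases before the start, plus strand, chr9:7692007-7692053: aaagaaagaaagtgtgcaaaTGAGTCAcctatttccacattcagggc
Mmp1a, an interstitial collagenase gene, 73 bases before the start, plus strand, chr9:7464048-7464094: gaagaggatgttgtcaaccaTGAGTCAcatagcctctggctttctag
Mmp1b, its near neighbour, 93 bases before the start, minus strand, chr9:7388093-7388139: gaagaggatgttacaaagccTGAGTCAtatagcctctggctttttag
The windows of Mmp8, Mmp20 and Mmp27 in the same cluster held no match.

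**Figure D1:**
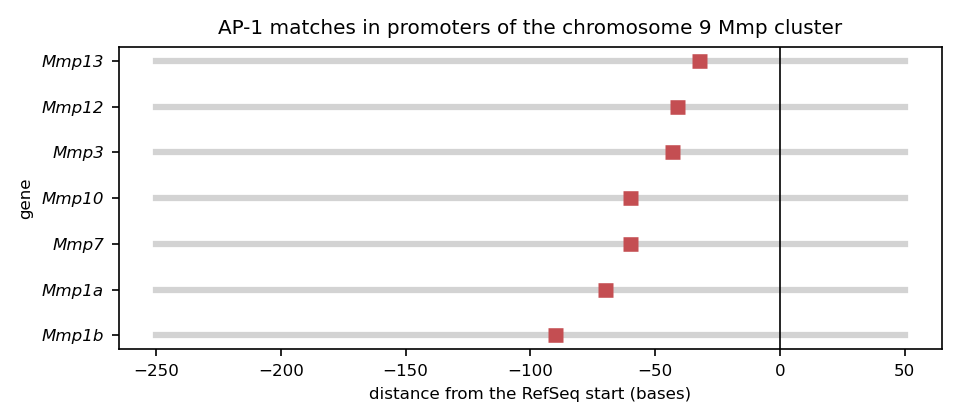
Position of the AP-1 match (red) in the promoter window (grey, from 250 bases before to 50 after the RefSeq start) of 7 genes of the chromosome 9 cluster, in bases from the start. All 7 matches lie between 93 and 35 bases before the start.

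The full CRE, TGACGTCA, which CREB-family factors including ATF1 bind, was found in none of the 32 members and in 2.03% of all genes with a promoter. The CRE core, TGACG or CGTCA, which a full CRE also contains, was present in 5 of 32 members (15.6%), below the 23.0% of all genes. Adamts1, Adamts9 and Timp1, the most abundant of the 5, are shown with the core in capitals.
Adamts1, 170 bases before the start, minus strand, chr16:85803259-85803303: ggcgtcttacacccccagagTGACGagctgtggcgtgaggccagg
Adamts9, 218 bases before the start, minus strand, chr6:92943728-92943772: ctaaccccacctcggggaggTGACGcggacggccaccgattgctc
Timp1, 84 bases before the start, plus strand, chrX:20870062-20870106: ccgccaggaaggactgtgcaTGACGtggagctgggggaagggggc
The other members with a core match were Adamts3 and Adamts12. A match describes letters in the window and not binding.

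Cluster genes that carry the AP-1 match were expressed at very different levels. Mmp13, Mmp3 and Mmp12 averaged 26.1 ± 55.7, 9.18 ± 8.49 and 5.69 ± 8.12 CPM (SD, n = 8). Without tumor 5 the means were 6.73, 7.92 and 3.28 CPM, so Mmp13 then lay below Mmp3. Mmp10 had 7 counts, Mmp1a 1 and Mmp1b 1 in all libraries together, and Mmp7 had none. A count of 0 in all libraries allows up to 0.0257 CPM for Mmp7, by counting error alone. The 10 cluster genes together reached 205 CPM in tumor 5, 49.4 in 2R, 32.2 in 1 and 20.8 in 6, and at most 8.53 in the remaining 4 tumors. Single genes held much of these sums. Mmp13 alone was at 162 CPM in tumor 5 and 28.1 in 1, and Mmp3 at 22.7 in 2R and 16.5 in 6.

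Of the 46 members, 33 reached a mean of 1 CPM, 20 reached 10 and 8 reached 100. The 8 were Timp3, Adamts1, Mmp14, Timp2, Adamts9, Adamts2, Mmp2 and Mmp17. By family, 14 of 23 MMPs, 16 of 19 ADAMTS and 3 of 4 TIMP genes reached 1 CPM. Below it were Mmp1a, Mmp1b, Mmp7, Mmp8, Mmp10, Mmp20, Mmp21, Mmp25, Mmp27, Adamts13, Adamts18, Adamts19 and Timp4. Adamts18 nevertheless reached 4.95 CPM in tumor 5 and Mmp27 2.11 CPM in the same tumor.

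**Figure D2:**
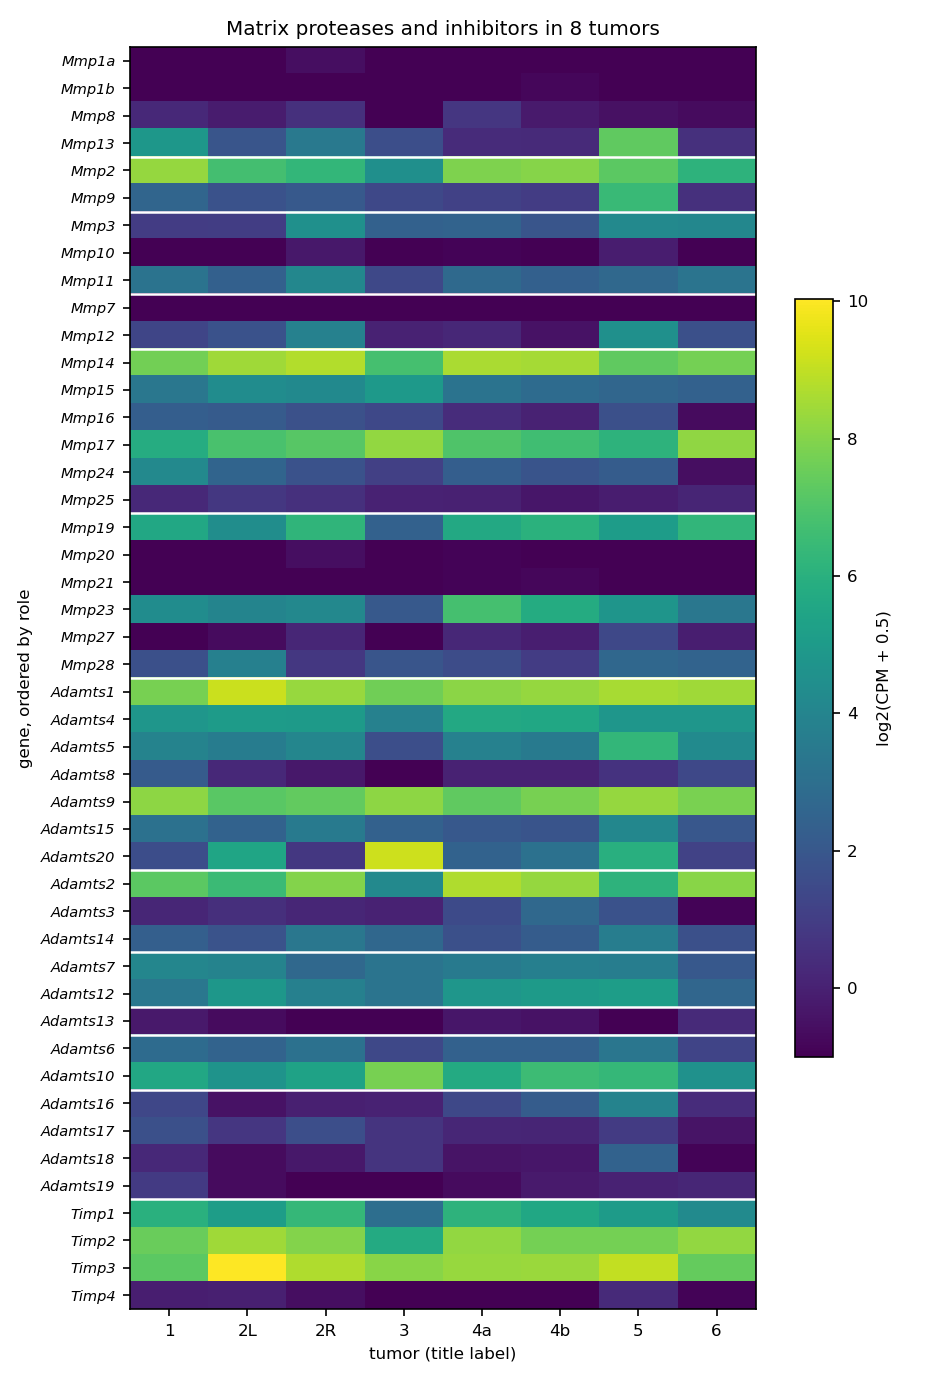
Level of each of the 46 members (rows, grouped by role with white lines between groups) in each of the 8 tumors (columns), as log2 of CPM plus 0.5. Mmp14, Mmp2, Adamts1, Adamts9, Timp2 and Timp3 are bright in nearly every column, whereas Mmp9 and Mmp13 stand out in tumor 5 and Adamts20 in tumor 3.

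To compare genes with each other, CPM were divided by exon length, in CPM per kb (1000 bases of exon). On that length-scaled level Adamts1 ranked first at 61.4 CPM per kb, followed by Timp2 at 59.7, Timp3 at 49.5, Timp1 at 49.5, Mmp14 at 47.01 and Mmp2 at 45.6. These 6 genes lay between the 95.7th and 96.9th percentiles of the 11505 genes tested. Their long transcripts put Adamts9 and Adamts2 lower on this scale, at 15.0 and 21.3 CPM per kb. The median of the 22 members that entered the tests lay at the 74.6th percentile.

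Summed by family, MMP transcripts amounted to 85.4 CPM per kb in tumor 3 and 227 in 4a, the lowest and highest. ADAMTS transcripts were more even, from 97.6 in tumor 1 to 158 in tumor 3, but without TMM factors tumor 3 was lowest, at 62.2. TIMP transcripts ranged from 54.96 in tumor 3 to 257 in 2L. The summed proteases exceeded the summed TIMPs in every tumor on this scale, 1.10 times in 2L, 1.43 to 2.33 times in 6 tumors and 4.43 times in 3. This ratio is taken within a library and does not depend on the scaling factors. In tumor 3 it rests largely on single genes. Adamts20 made up 41.4% of the ADAMTS sum there, against at most 4.68% elsewhere. Mmp17 made up 53.2% of the MMP sum in tumor 3, and Timp1 had only 14 counts.

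**Figure D3:**
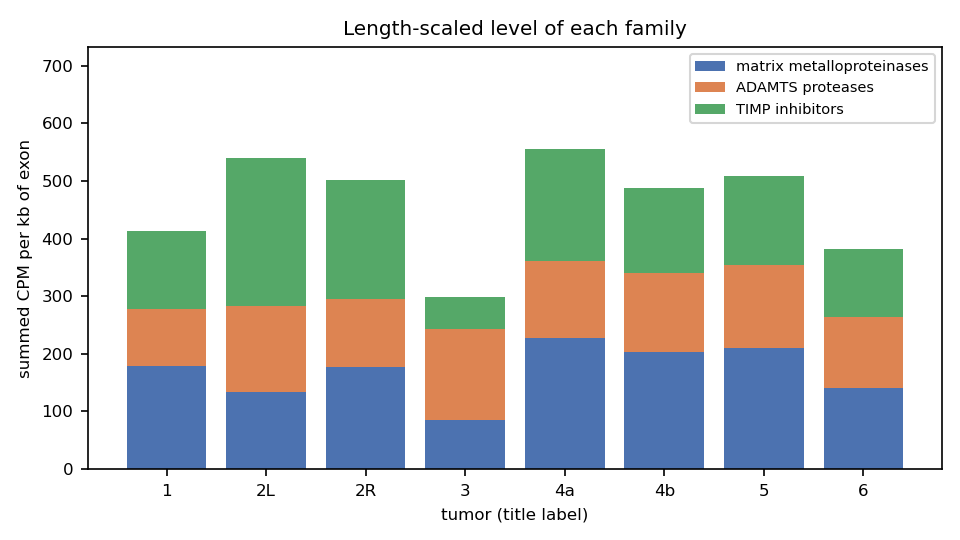
Summed level of the MMP, ADAMTS and TIMP genes in CPM per kb of exon (stacked bars, from 0) in each of the 8 tumors, 1 library each. The TIMP part is largest in 2L (257) and smallest in 3 (54.96), where ADAMTS genes make up 53.0% of the bar.

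Gelatinases, which cleave denatured collagen and basement membrane collagen, differed sharply from each other. Mmp2 (chromosome 8, 92827291 to 92853420) stood at 153.8 ± 103 CPM (SD, n = 8), with a lowest value of 21.8, a median of 129 and a highest of 307. Tumors 1, 4b and 4a were highest, at 307, 259.7 and 236 CPM, and tumor 3 lowest, where the value rests on 41 counts. Mmp2 also took very different shares of the MMP sum, with 50.8% in tumor 1 and 7.59% in 3.

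Mmp9 (chromosome 2, 164940780 to 164955850) was low everywhere but in tumor 5. Tumor 5 had 88.4 CPM, whereas the other 7 tumors had 0.935 to 5.50 CPM. The value in tumor 5 was 16.1-fold above the second highest, that of tumor 1. Relative to Timp1, which encodes the inhibitor that binds the MMP9 precursor, the length-scaled log2 ratio of Mmp9 was -0.54 in tumor 5 and from -7.34 to -3.80 in the others.

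Collagenases cut intact fibrillar collagen. Of the genes classed here as collagenases (Mmp1a, Mmp1b, Mmp8 and Mmp13), Mmp13 (chromosome 9, 7272514 to 7283331) had the highest mean, 26.1 CPM. Its product is the main interstitial collagenase of mouse bone and cartilage. Mmp13 stood at 162 CPM in tumor 5, 28.1 in 1 and 10.6 in 2R, and between 0.756 and 3.21 in the remaining 5 tumors. In tumor 5 it supplied 28.9% of the summed MMP level, against 0.130% to 5.86% in the others. Mmp8, the collagenase of neutrophils, did not exceed 1.16 CPM. That value was reached in 4a, on 28 counts, where Mmp13 stood lower, at 0.787 CPM on 19 counts.

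Stromelysins and elastase showed another order of tumors. Mmp3, which cleaves many matrix proteins and activates other MMPs, stood at 22.7 CPM in 2R, 18.0 in 5 and 16.5 in 6, and at most 5.18 CPM in the other tumors; without TMM factors tumor 6 was highest, at 21.3 CPM against 18.9 in 2R. Mmp11, a stromelysin activated by furin inside the cell, ranged from 2.13 in tumor 3 to 16.8 CPM in 2R around a median of 6.24. Mmp12, named after the macrophage that secretes it, stood at 22.5 CPM in 5 and 13.9 in 2R, and at most 2.98 CPM elsewhere. All 8 macrophage marker genes peaked in tumor 6, where Mmp12 stood at 2.76 CPM. Which cells expressed Mmp12 was not tested.

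Among the membrane-type MMPs, Mmp14 (chromosome 14, 54431612 to 54445364) was abundant in every tumor. Its lowest, median and highest values were 109, 281 and 435 CPM, and the mean was 280.2 ± 123 (SD, n = 8). The values of 2R, 4a, 4b and 2L, from 352 to 435 CPM, lay above those of the other 4 tumors, from 109 to 209. Mmp17 (chromosome 5, 129584169 to 129611099), a membrane-type MMP held by a lipid anchor, stood at 300.4 CPM in 3 and 288 in 6, against 56.5 to 141.5 CPM in the other 6. The position of tumor 3 depends on its scaling factor: without TMM factors Mmp17 was at 118 CPM in 3 and 372 in 6.

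The other membrane-type genes were lower. Mmp15 ranged from 4.80 CPM in tumor 6 to 30.4 in 3, but without TMM factors it was highest in 2L, at 27.1 CPM against 12.0 in 3. Mmp24, a gene of neural tissue, stood at 17.8 CPM in tumor 1 and at most 5.33 elsewhere, with 0.163 CPM in 6. Mmp16 followed a similar order at low level, from 0.122 in 6 to 4.44 CPM in 1, but was highest in 2L without TMM factors, at 5.46 CPM against 4.86 in 1, and Mmp25 did not exceed 1.21 CPM.

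Of the remaining MMPs, Mmp19 and Mmp23 were the most abundant. Mmp19, a secreted enzyme of several tissues, had a median of 48.8 CPM and ranged from 4.79 CPM in 3, on 9 counts, to 76.1 in 6. Mmp23, whose product is anchored through its N-terminus, reached 110.1 CPM in 4a and 54.4 in 4b, with 3.73 to 26.5 CPM in the other 6 tumors. The same-number libraries 4a and 4b thus held its 2 highest values. Mmp28 (epilysin), which epithelia express, was highest in 2L at 13.3 CPM and lowest in 2R at 1.25.

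The proteoglycan-cleaving ADAMTS genes held both the steadiest and the most variable members. Adamts1 (chromosome 16, 85793827 to 85803113), which cleaves versican, averaged 326 ± 113 CPM, with a lowest value of 199, a median of 312 and a highest of 561 in 2L. Adamts9 (chromosome 6, 92772699 to 92943492), another versican-cleaving enzyme, averaged 225 ± 64.5 CPM and ranged from 147 in 2L to 313 in 5. Highest and lowest differed only 2.82-fold and 2.13-fold for these genes, the smallest spans among the 33 members with a mean of at least 1 CPM. The narrow span rests on the scaling of tumor 3, which without TMM factors was lowest for both, at 78.2 CPM for Adamts1 and 112 for Adamts9. Adamts4, an aggrecanase, stood at 32.0 ± 11.5 CPM (SD, n = 8).

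Adamts5 (chromosome 16, 85856173 to 85901828), the principal aggrecanase of mouse cartilage, lies 53059 bases from Adamts1 but followed a different order. It stood at 77.9 CPM in tumor 5, 4.11-fold above the second highest, tumor 6 at 18.9, and at 2.66 CPM in 3 on 5 counts. Adamts8 and Adamts15, neighbours 20109 bases apart on chromosome 9, likewise peaked in different tumors, Adamts8 in 1 at 3.995 CPM and Adamts15 in 5 at 16.7.

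Adamts20 had the widest span of all tested members. Its mouse mutant, belted, lacks melanocytes in a band of skin, and the enzyme is known to support melanoblasts, their precursors. The gene (chromosome 15, 94270163 to 94465418) stood at 589 CPM in tumor 3, 60.7 in 5 and 44.8 in 2L, and between 1.25 and 8.16 CPM in the other 5 tumors. Tumor 3 lay 9.70-fold above the second highest. Without TMM factors tumor 3 was still highest, at 232 CPM against 61.2 in 2L. The mean was 89.1 ± 203 CPM over 8 tumors and 17.8 ± 24.4 CPM without tumor 3. The 7 epithelial markers summed to 492 CPM in 3, 1268 in 5 and 1702 in 2L, against at most 62.7 in the others. Skeletal muscle markers summed to 6634 CPM in 3 and 20554 in 2L, against at most 111 elsewhere, tumor 5 included. The part of these cell types in the Adamts20 level was not tested.

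**Figure D4:**
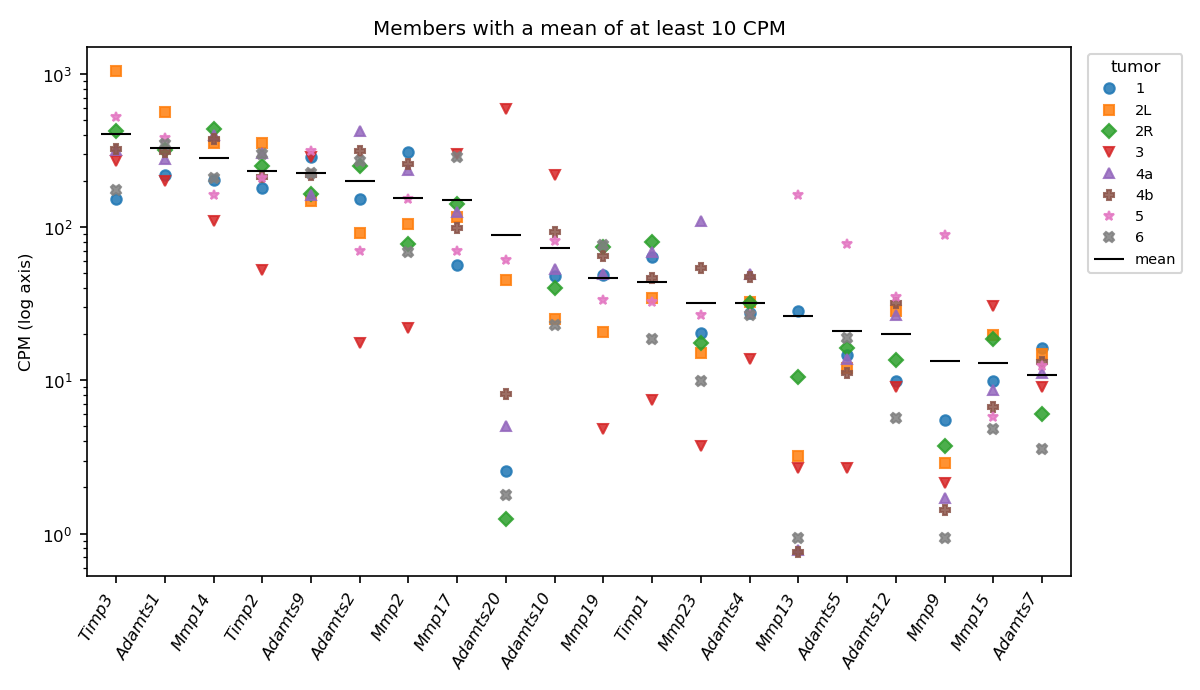
CPM (log axis) of the 20 members with a mean of at least 10 CPM in each of the 8 tumors (symbols), with the mean as a black bar, ordered by mean. Adamts1 and Adamts9 form tight columns, while single tumors lie far above the rest for Adamts20 (tumor 3), Mmp9, Mmp13 and Adamts5 (tumor 5).

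Procollagen N-propeptidases trim procollagen before fibrils form. Adamts2 (chromosome 11, 50602084 to 50807573), the main enzyme for type I procollagen, stood at 199 ± 139 CPM (SD, n = 8), with 424 in 4a, 313 in 4b, 268 in 6 and 252 in 2R. It was lowest in 3, at 17.6 CPM on 33 counts, and in 5, at 69.5. Adamts14 and Adamts3 averaged 5.64 and 1.76 CPM, and Adamts3 had its highest value in 4b, at 6.12 CPM.

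Adamts12 and Adamts7, whose products cleave cartilage oligomeric matrix protein, averaged 20.1 ± 11.7 and 10.8 ± 4.33 CPM. Of the fibrillin-associated enzymes, Adamts10 reached 219 CPM in tumor 3, against 23.1 to 93.2 CPM in the remaining 7. That order depends on the scaling: without TMM factors Adamts10 was at 86.2 CPM in 3 and highest in 4b at 111. Adamts6 averaged 5.48 CPM. Adamts13, the enzyme that cleaves von Willebrand factor, had 35 counts over all libraries. Adamts16 was at 14.7 CPM in tumor 5 and at most 4.08 elsewhere, and Adamts17 did not exceed 2.75 CPM.

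All inhibitors but Timp4 were abundant in most tumors. Timp3 (chromosome 10, 86300372 to 86349506), which binds to matrix and also inhibits ADAMTS4 and ADAMTS5, averaged 403 ± 285 CPM, with a lowest value of 153 in tumor 1, a median of 323 and a highest of 1041 in 2L. Timp2 (chromosome 11, 118301069 to 118355740) averaged 233 ± 93.3 CPM and lay between 179 and 354 in 7 tumors, but at 52.7 in 3. Timp1 (chromosome X, 20870166 to 20874735) averaged 43.9 ± 25.4 CPM, from 7.46 in 3, on 14 counts, to 79.9 in 2R. Without TMM factors Timp1 was highest in 4a, at 92.1 CPM, and Timp3 lowest in 3, at 106 CPM. Timp4 had 26 counts in all.

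The inhibitor that led the TIMP sum, per length, changed from tumor to tumor. Timp1 led in tumor 1 with 52.4% and in 2R with 43.6%. Timp2 led in 6 with 64.6%, and Timp3 in 3 with 60.1%, in 2L with 49.7% and in 5 with 41.6%. In 4a and 4b no gene led clearly, with Timp2 at 39.8% and 37.0% and Timp1 at 39.98% and 35.7%.

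Of the 33 members with a mean of at least 1 CPM, 10 were highest in tumor 5, compared with 10.3% of all genes at that level. Without TMM factors 8 members were highest in tumor 5 (6.49% of all genes) and as many, 8, in 2L (27.7% of all genes). They were Mmp9, Mmp12, Mmp13, Adamts5, Adamts6, Adamts9, Adamts12, Adamts14, Adamts15 and Adamts16; without TMM factors Adamts9 was highest in 1 and Adamts12 in 2L. Tumors 3 and 6 held most of the minima, 12 and 11 of the 33 members, where 31.7% and 18.1% of all genes were lowest, and without TMM factors 22 and 5 members, where 69.1% and 8.35% of all genes were lowest. Members at least 4-fold higher in a single tumor than in any other were Mmp9, Mmp13 and Adamts5 in tumor 5 and Adamts20 in tumor 3, 4 of 33 against a background of 4.82% of 15227 genes. Only Mmp9 and Mmp13 met this without TMM factors, and 2 members met it without tumor 5 and 7 without 4b. Tumor 5 alone exceeded all others 4-fold in 0.479% of the 15227 genes, 3 members among them; this rule was set after the values were seen.

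Markers of cell types known to make MMP9 and MMP13 were as follows in tumor 5. Its 6 osteoclast markers summed to 123 CPM, rank 5 of the 8 tumors. Acp5 stood at 30.9 and Ctsk at 78.3 CPM, while Dcstamp, Ocstamp and Calcr did not exceed 0.421 CPM. Atp6v0d2, the remaining gene of the list, which encodes a proton pump subunit, was highest in tumor 5, at 13.3 CPM, with 12.0 in 2R and at most 3.73 in the others. The 8 neutrophil markers summed to 14.8 CPM, with Mpo and Elane at 0.527 and 0.105 CPM, against a highest sum of 65.7 in 4b. The 8 macrophage markers summed to 1202 CPM in 5 and 3549 in 6. Cartilage and bone markers had their highest sum in 5, at 465 CPM, against 165 to 348 in the other tumors. In tumor 5 the bone sialoprotein gene Ibsp held 203 CPM of that sum. Of the 8 genes in this list, 3 were highest in tumor 5 and 2 in tumor 6. Without Ibsp the sum was 262 CPM in 5, below those of tumors 1, 3, 2R and 6, from 287 to 335 CPM. That order depends on the scaling: without TMM factors tumors 3 and 2R lay below 5, and 4a and 2L above it. The cartilage collagen gene Col2a1 stood at 47.5 CPM in 5, against 174 to 177 in 1, 2R and 3. The cartilage regulator gene Sox9 stood at 63.9 CPM in 5, against 105 in 3, but without TMM factors Sox9 was lower in 3 than in 5. Acan and Comp, substrates of aggrecanases and of ADAMTS7 and ADAMTS12, were highest in tumor 5, at 50.5 and 177 CPM. Acan was nearly as high in tumor 1, at 45.7 CPM, and the second highest Comp value was 95.0 CPM in 4b. Whether chondrocyte-like or bone-forming cells contributed to the member levels was not tested.

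The only structure in the labels is the title number, so genes were tested for differences among the 6 numbers. No member passed, and neither did any other gene: edgeR's quasi-likelihood test with Benjamini-Hochberg adjustment called 0 of 22 members tested and 0 of 11505 genes (0.0%). Unadjusted p lay under 0.05 for 13 of the 22 members (59.1%), against 24.5% of all genes. Smallest among members was the adjusted p of Mmp2 and of Adamts5 (0.0974 for each, edgeR). The test rests on 2 residual degrees of freedom, those of 2L with 2R and 4a with 4b. The 24 other members, Mmp9, Mmp12 and Mmp13 included, did not reach the count minimum in every library and were not tested; 13 of them lay under a mean of 1 CPM.

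The call depends on the tool and on the pair that measures the spread. The DESeq2 likelihood ratio test called 14 of 22 members and 20.7% of all genes. Those 14 were Timp1, Timp2, Timp3, Mmp2, Mmp14, Mmp15, Mmp17, Mmp19, Mmp23, Adamts2, Adamts5, Adamts10, Adamts12 and Adamts20; Adamts1, Adamts4 and Adamts9 were not among them. Without 2L, when only 4a and 4b measure the spread, edgeR called 20 of 22 members and 38.7% of all genes; without 2R it called 20 of 22 and 39.3%. The 22 members had a median SD of 0.96 on the log2 CPM scale, against 0.51 over all genes tested, and 20 of them lay above that median of all genes.

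Members differed widely between 2L and 2R and little between 4a and 4b. With a single library on each side, no test was made. Among members with a mean of at least 5 CPM in the pair, 5 of 26 were at least 2-fold higher in 2L (background 12.2%) and 9 of 26 at least 2-fold lower (background 8.46%). This balance depends on the scaling. Without TMM factors Adamts1 (765 CPM in 2L against 262 in 2R), Timp2 (484 against 208) and Mmp2 (143 against 64.5) were also at least 2-fold higher. Timp1 (46.7 against 66.3), Adamts2 (125 against 209) and Adamts15 (6.79 against 9.30) were then less than 2-fold lower. Background shares without the factors were not computed. Of 19 members compared between 4a and 4b, only Mmp23 was at least 2-fold higher in 4a, by 1.02 on the log2 scale (background 2.55%), and 0 were at least 2-fold lower (background 2.09%).

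Higher in 2L were Adamts20 (44.8 CPM in 2L against 1.25 in 2R), Mmp28 (13.3 against 1.25), Timp3 (1041 against 422), Adamts7 and Adamts12. The lower ones included Mmp3, at 1.53 CPM in 2L and 22.7 in 2R, Mmp12, at 2.98 and 13.9, and Mmp19, at 20.6 and 74.1. Timp1 was at 34.3 CPM in 2L and 79.9 in 2R, so the inhibitors Timp1 and Timp3 differed in opposite directions, with log2 ratios of -1.22 and 1.30. Mmp14 and Mmp17 differed by -0.31 and -0.29 on the log2 scale. Both signs depend on the scaling. With no TMM factors Mmp14 stood at 480 CPM in 2L and 361 in 2R, and Mmp17 at 158 and 117. Timp1 was then at 46.7 CPM in 2L and 66.3 in 2R. Epithelial markers summed to 1702 CPM in 2L and 24.9 in 2R, skeletal muscle markers to 20554 and 111, and fibroblast markers to 3968 and 19003. Of the fibroblast sums, Col1a2 alone held 1644 and 13483 CPM. Dcn (184 against 152 CPM) and Postn (322 against 216) were the only fibroblast markers higher in 2L. The part of these cell types in the member differences was not tested.

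**Figure D5:**
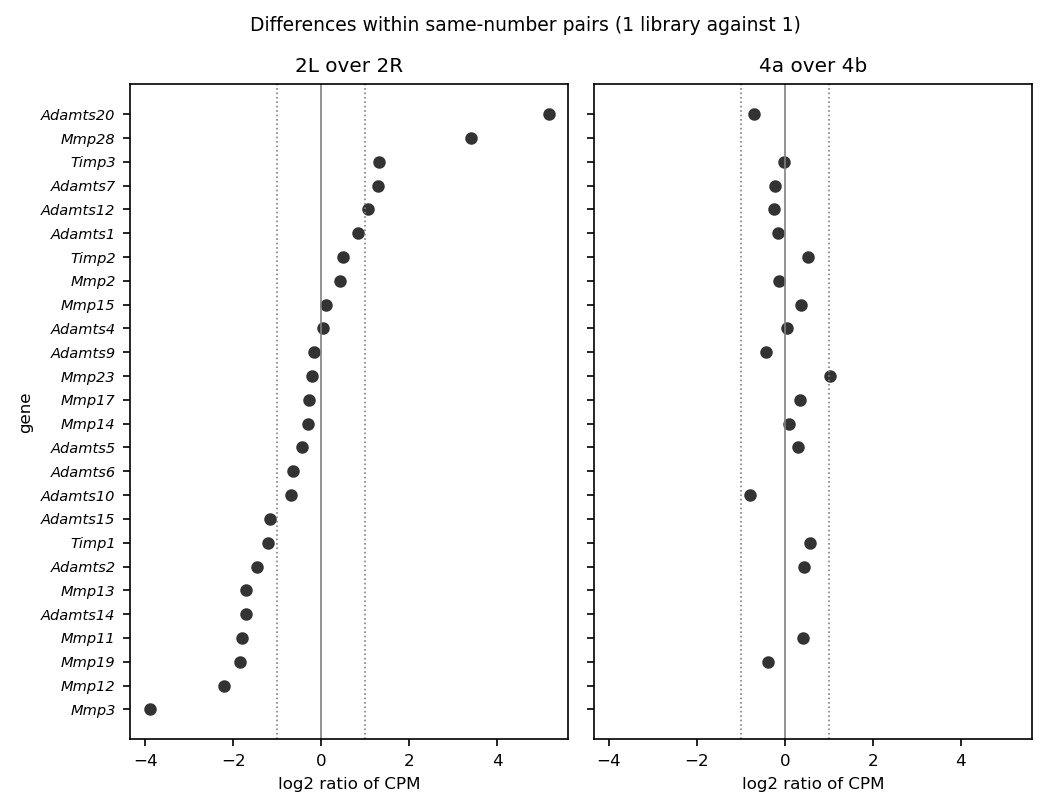
Log2 ratio of CPM for each member with a mean of at least 5 CPM in the pair, 2L over 2R (left) and 4a over 4b (right), 1 library against 1; dotted lines mark 2-fold. Ratios run from -3.89 (Mmp3) to 5.17 (Adamts20) for 2L over 2R and stay within 2-fold for 4a over 4b except for Mmp23.

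No relation between genes whose products act on each other passed the threshold over the 6 title numbers. Log2 CPM of same-number tumors was averaged, and 6 gene pairs were related with two-sided exact permutation tests. Mmp2 with Mmp14 gave Pearson's r = 0.54 and Spearman's rho = 0.26 (exact permutation p = 0.267 and 0.658), and r = -0.03 without tumor 3. Mmp2 with Timp2 gave r = 0.62 and rho = -0.09 (exact permutation p = 0.210 and 0.919), but r = -0.82 without tumor 3, so the sign of this relation rests on 1 library. Mmp9 with Timp1 gave r = 0.19 and rho = 0.31 (exact permutation p = 0.728 and 0.564). Adamts5 with Timp3 gave r = 0.30 and rho = -0.03 (exact permutation p = 0.629 and 1.0), and r = -0.09 without tumor 5.

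Both relations to markers of other cell types also missed the threshold. Mmp2 with the fibroblast gene Col1a1 gave r = 0.79 and rho = 0.77 (exact permutation p = 0.0639 and 0.103). Mmp12 with the macrophage gene Adgre1 gave r = 0.36 and rho = 0.31 (exact permutation p = 0.483 and 0.564). Adjusted over the 6 pairs, no r reached an exact permutation p below 0.383 and no rho one below 0.617. Leaving out the 2 numbers furthest from the median of the first gene, r was 0.22, -0.67, 0.37, -0.51, 0.72 and 0.96 for Mmp2 with Mmp14, Mmp2 with Timp2, Mmp9 with Timp1, Adamts5 with Timp3, Mmp12 with Adgre1 and Mmp2 with Col1a1.

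Other genes of the pathway were taken from lists of known activators, inhibitors and substrates. Of 13 activators and cofactors 12 reached a mean of 1 CPM, all but the plasminogen gene Plg, which had 3 counts in all. The proprotein convertase gene Pcsk6 averaged 2330 ± 1983 CPM, from 767 in tumor 1 to 5949 in 6, Bsg, an inducer of MMPs, 624 ± 369 and the plasminogen activator gene Plat 323 ± 195 CPM. The other inhibitor and clearance genes were led by Lrp1, a receptor that takes up proteases, at 2051 ± 866 CPM, the serpin gene Serpine2 at 1572 ± 793 and the collagen chaperone gene Serpinh1 at 804 ± 543. Reck, a membrane inhibitor of MMPs, stayed between 6.54 and 20.7 CPM. Spock2, a matrix proteoglycan, stood at 779 CPM in tumor 3 and at most 48.9 elsewhere.

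The ADAMTS-like genes, whose products lack a protease domain, were led by Adamtsl4, Adamtsl1 and Adamtsl2, at 42.8, 40.96 and 33.6 CPM. Of the membrane-bound ADAM proteases, Adam10, Adam9 and Adam15 averaged 232 ± 76.9, 201 ± 77.4 and 124 ± 67.8 CPM. Among substrates, the fibrillin gene Fbn1 averaged 440.2 ± 235, versican (Vcan) 318 ± 173 and biglycan (Bgn) 269 ± 161 CPM. By edgeR's quasi-likelihood test among the title numbers 0 genes of these lists were called, out of 12 activators and cofactors, 7 inhibitors and clearance genes, 3 ADAMTS-like, 8 ADAM and 8 substrate genes tested. Unadjusted p lay under 0.05 for 2, 3, 2, 4 and 4 of them, against 24.5% of all genes, and DESeq2 called 5, 6, 2, 4 and 4, against 20.7% of all genes, in the same order of lists. The median SD of log2 CPM in these lists was 0.87, 1.29, 1.11, 0.62 and 0.95, against 0.51 over all genes tested.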

How the data were processed

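The authors deposited 1 table of raw counts, whole numbers per Ensembl gene for the 8 tumors. The build mm10 and the tools STAR 2.7.5a, RSEM, featureCounts and cutadapt are named in the submitters' processing notes; the counting tool and whether it used strand are not given in the sources used here. Symbols, positions and exon lengths came from GENCODE M21 (same build), which named 49412 of 49671 identifiers.

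The analysis used edgeR 4.0.16 in R 4.3.3. filterByExpr for 1 group (10 counts in a library of median size, 0.920 CPM, in all 8) kept 11505 genes for TMM scaling and tests. log2 CPM used a prior count of 2. The main test was glmQLFit with a robust prior and glmQLFTest among the 6 title numbers, adjusted after Benjamini and Hochberg at 0.05; DESeq2 1.42.0 was an alternative. Alternatives were other scalings, filters, priors and folds, and leaving out each tumor.

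Members and lists were chosen with earlier results of these data known. Named were all TIMP genes, the 2 members of highest mean CPM per role, the 6 of largest SD, members without counts, genes of fixed pairs and the 3 most abundant of each pathway list; other genes were named after their values were seen. Intervals and limits cover counting error only. RefSeq promoters (GRCm38.p6) were searched on both strands.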

Additional observations from a re-analysis of the deposited data

Results flagged for a closer look

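In 6 of the 43 named genes with a mean of at least 1 CPM, 1 tumor lay apart from the other 7 on the log2 CPM scale. The gap was more than Dixon's 95% limit for 8 samples, which chance gives in about 1 of 20 groups. The share over all genes was not computed, so the 6 of 43 cannot be set against a background. Some of the 43 were named for a large SD in these same values. Among members, Mmp9 stood at 88.4 CPM in tumor 5 and Timp2 at 52.7 CPM in tumor 3. Among the pathway genes, Lrp1 stood at 312 CPM and Serpine2 at 229 CPM in tumor 3, both low, Adamtsl2 at 121 CPM in 2L and Adam15 at 283 CPM in 6, both high. Tumor 3, the shallowest library, accounts for 3 of the 6, all low, and was lowest for 31.7% of all genes with a mean of at least 1 CPM. Without TMM factors Timp2 was lower still in that tumor, at 20.8 CPM.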

How the results depend on the processing

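The count of differing genes depended on the filter, the test and the pair 2L and 2R. Among title numbers, the DESeq2 likelihood ratio test called 2383 of 11505 genes (20.7%) and 14 of 22 members (63.6%). With no filter, edgeR called 6260 of 30321 genes (20.6%) and 24 of 45 members (53.3%). Leaving out 1 tumor gave 0 to 4548 genes and 0 to 20 members. The calls arose without 2L (4457 genes, 38.7%) or 2R (4548 genes, 39.3%), with 20 of 22 members in each. The cause was not tested. DESeq2 size factors, a mean CPM filter and protein-coding genes only gave 0 calls with edgeR. Members at least 2-fold apart between 4a and 4b numbered 2 at a minimum of 1 CPM, 3 at 1.5-fold and 2 with protein-coding genes only, an alternative chosen after seeing the data. Members at least 4-fold higher in 1 tumor numbered 2 without TMM factors and 2 to 7 with 1 tumor left out: 2 without 5, and 7 without 4b. With 1 tumor left out, r ran from -0.0310 to 0.69 for Mmp2 with Mmp14, from -0.82 to 0.77 for Mmp2 with Timp2 (negative without 3 in both) and from -0.0877 to 0.40 for Adamts5 with Timp3 (negative without 5). Over all alternatives, 313 values of mean levels moved by less than the SD, which is wide for Mmp13, Mmp9 and Adamts20, and 6 by more; these 6 came from protein-coding genes only, whose smaller totals raise every CPM by 0.60 to 0.69 (log2). No paired analysis was possible because there is 1 group. Depth limits tumor 3, where 3 counts equal 1.60 CPM, against at most 0.467 elsewhere.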
